A study of Mus musculus with 8 samples.

Results

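Genes of sperm ion transport and cAMP signalling were followed in the testis of mice with and without a functional Tmem232 gene. The 8 members were chosen by symbol, namely the soluble adenylyl cyclase Adcy10, the catalytic subunit of protein kinase A Prkaca, the sperm sodium-proton exchanger Slc9c1, the anion transporter Slc26a8, the potassium channel Kcnu1 with its auxiliary subunit Lrrc52, the sodium pump subunit Atp1a4 and the plasma membrane calcium pump Atp2b4. The choice was made with earlier results of these data known. All 8 members were found among the 19906 genes of the deposited table, and all 8 passed the filter on low counts that left 15787 genes. Total RNA came from whole testes at an age of 2 months, with 4 libraries labelled KO, genotype Tmem232-/-, and 4 labelled WT, genotype Tmem232+/+. The Tmem232-/- line carries a constitutive CRISPR-Cas9 deletion, made in C57BL/6 oocytes, of a stretch between introns of Tmem232, so the deletion is not limited to germ cells.

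Sperm leave the testis immotile and gain motility and fertilising capacity later. In the sperm tail, bicarbonate activates the soluble adenylyl cyclase, the resulting cAMP activates protein kinase A, and exchangers, channels and pumps set the pH, the membrane potential and the calcium level of the flagellum. Many of these proteins are made only in germ cells, and their transcripts accumulate in late spermatocytes and spermatids, before transcription stops in the elongating spermatid.

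Total counts lay between 15428421 and 16350871 per library. Tmem232 itself was not lower in the libraries labelled KO. Its level was 147.6, 131.6, 123.1 and 122.1 CPM, the counts scaled to a fixed library size, in replicates 1 to 4 labelled KO and 111.2, 106.3, 108.4 and 109.9 CPM in those labelled WT, so that each library labelled KO lay above each labelled WT. This was a log2 fold change of 0.27 ± 0.072 (SE, adjusted p = 0.0335, edgeR quasi-likelihood test, Benjamini-Hochberg adjusted), and it lost its call without KO replicate 1 or 2 or WT replicate 2 or 4, with adjusted p from 0.0858 to 0.0892 (edgeR). A count per gene also collects reads from exons outside the deletion, so it does not check the labels, and directions below refer to the labels. WT replicate 3 stood apart from the other libraries labelled WT, with a chi-square per degree of freedom of 14.576 to 23.222 against each of them, whereas the other pairs of that genotype gave 3.606 to 6.35. The libraries labelled KO split as well, with 11.667 to 13.751 for replicates 1 and 4 against replicates 2 and 3, 8.191 for replicates 1 and 4 and 3.478 for replicates 2 and 3.

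Of the 8 members, 4 rose in the libraries labelled KO and none fell at an adjusted p under 0.05. They were Atp1a4, Lrrc52, Kcnu1 and Adcy10, with 3.735-fold, 2.592-fold, 1.947-fold and 1.539-fold higher levels. Of all 15787 tested genes, 10.3% were called higher and 1.46% lower, and 5.23% were higher by 2-fold or more, as were Atp1a4 and Lrrc52. The other 4 members, Slc9c1, Slc26a8, Atp2b4 and Prkaca, had log2 fold changes between -0.07 and 0.15 and did not pass the test, and none of the 8 was lower at an unadjusted p under 0.05 or called lower in any alternative analysis, DESeq2 and limma included. The median log2 fold change was 0.39 over the 8 members and -0.05 over all tested genes. In whole testis, more cells of a type and more RNA per cell cannot be told apart.

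**Figure D1:**
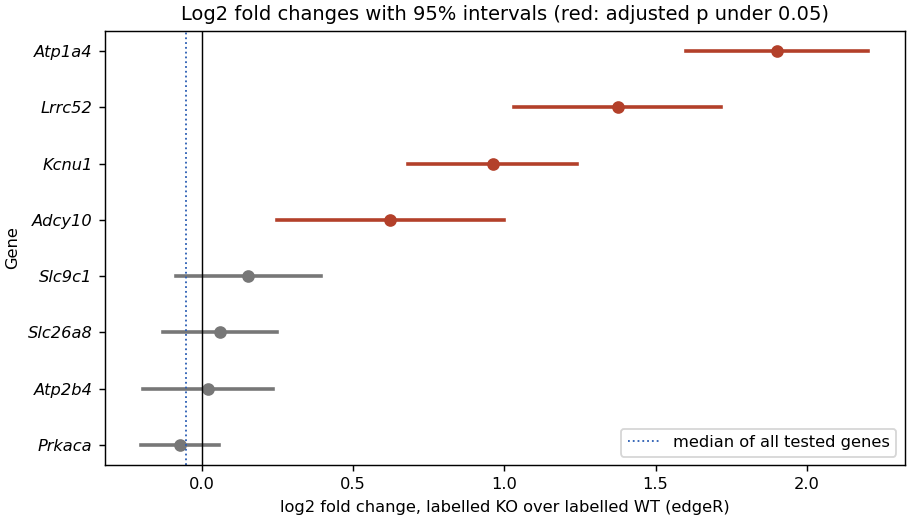
Log2 fold change of each member in the libraries labelled KO over those labelled WT from edgeR (points) with its 95% interval (lines), 4 libraries per genotype. The intervals of Atp1a4, Lrrc52, Kcnu1 and Adcy10 (red) lie above 0, and the dotted line is the median of all tested genes.

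The promoters of 3 members that rose are shown with that of Prkaca, which did not change by the test and holds the only matches among the members for a short form of the cAMP response element. Each is the 250 bases before the transcription start in RefSeq on GRCm38.p6, printed 5′ to 3′ on the strand of the gene, with motif matches in capitals. Atp1a4 lies on the minus strand at chr1:172258425-172258674, Lrrc52 on the minus strand at chr1:167466781-167467030, Adcy10 on the plus strand at chr1:165484933-165485182 and Prkaca on the plus strand at chr8:83972728-83972977.
Atp1a4: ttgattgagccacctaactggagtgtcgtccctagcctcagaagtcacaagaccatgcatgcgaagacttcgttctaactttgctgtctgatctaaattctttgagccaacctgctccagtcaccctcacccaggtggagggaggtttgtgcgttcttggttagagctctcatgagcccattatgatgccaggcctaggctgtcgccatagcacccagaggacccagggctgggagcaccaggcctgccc
Lrrc52: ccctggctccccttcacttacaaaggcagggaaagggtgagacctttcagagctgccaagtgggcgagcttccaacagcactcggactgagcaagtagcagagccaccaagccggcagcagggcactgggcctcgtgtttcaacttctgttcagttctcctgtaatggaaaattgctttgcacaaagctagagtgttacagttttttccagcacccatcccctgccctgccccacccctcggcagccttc
Adcy10: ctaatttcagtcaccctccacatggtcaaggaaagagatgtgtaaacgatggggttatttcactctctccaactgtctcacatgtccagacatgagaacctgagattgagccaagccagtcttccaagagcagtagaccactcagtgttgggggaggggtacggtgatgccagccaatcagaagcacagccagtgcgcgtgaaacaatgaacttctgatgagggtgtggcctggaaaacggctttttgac
Prkaca: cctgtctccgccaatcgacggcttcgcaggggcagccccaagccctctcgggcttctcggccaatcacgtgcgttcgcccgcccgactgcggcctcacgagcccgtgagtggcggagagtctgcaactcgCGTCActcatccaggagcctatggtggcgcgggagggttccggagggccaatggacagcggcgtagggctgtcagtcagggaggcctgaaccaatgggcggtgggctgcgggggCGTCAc

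The search covered 3 motifs on both strands, the full cAMP response element TGACGTCA, its short form TGACG, which the full element contains, and GTTGCC, the core of the sites that regulatory factor X proteins bind. They occurred in 1.55%, 17.8% and 10.4% of 32851 RefSeq promoters of the same length. Among the 15860 promoters of tested genes the shares were 2.31%, 23.5% and 11.3%. Of the 8 members, 7 had an entry and Kcnu1 had none. No letters of these 3 motifs were found in the windows of Atp1a4, Lrrc52, Adcy10, Slc9c1, Atp2b4 or Slc26a8. In the Prkaca window the short form stood on the opposite strand, read as CGTCA, at 120 and 6 bases before the start, and another Prkaca start at 83976883 had GTTGCC at 131 bases before it. The Prkaca window shown was also the richest in G and C, with 68.8% and 25 CpG dinucleotides, against 54.8% and 5 for Atp1a4, 56.0% and 5 for Lrrc52 and 35.6% and 3 for Slc9c1. These matches are descriptions of the letters and not bound sites.

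The largest rise among the members was that of Atp1a4. It encodes the catalytic alpha subunit of the sodium-potassium ATPase that is found in sperm, and it lies on the minus strand of chromosome 1 at 172223513 to 172258414 (GENCODE M21, GRCm38), with 23 exons in its longest coding transcript. Its level in replicates 1 to 4 was 133.3, 154.0, 125.5 and 116.4 CPM in the libraries labelled KO and 40.75, 26.04, 34.89 and 39.98 CPM in those labelled WT. All 4 libraries labelled KO lay far above all 4 labelled WT, and the lowest of the former was at 116.4 CPM against 40.75 CPM for the highest of the latter. The means were 132.3 ± 16.02 and 35.42 ± 6.771 CPM (SD, n = 4 each), and an exact two-sided permutation test gave p = 0.0286, the smallest that the 70 arrangements of 8 libraries allow. edgeR gave a log2 fold change of 1.90 ± 0.137 (SE, adjusted p = 2.1e-05, edgeR), at percentile 98.70 of all tested genes.

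Atp1a4 was also set against Atp1b3, a beta subunit of the pump, within each library. Atp1b3 rose by 0.33 ± 0.057 on the log2 scale (adjusted p = 0.00211, edgeR). The log2 ratio of Atp1a4 to Atp1b3 was -0.49, -0.22, -0.50 and -0.61 in the libraries labelled KO and -1.81, -2.42, -2.06 and -1.81 in those labelled WT. It was thus 1.57 higher in the libraries labelled KO, without overlap (exact permutation p = 0.0286, adjusted p = 0.0457 over the 8 pairs of genes compared), so Atp1a4 changed by more than this subunit.

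Kcnu1 and Lrrc52 rose as well. Kcnu1 encodes the pore of the sperm-specific potassium channel and lies on the plus strand of chromosome 8 at 25849623 to 25937939, with 27 exons, and Lrrc52, which encodes a leucine-rich repeat subunit that shifts the activation of this channel, lies on the minus strand of chromosome 1 at 167445669 to 167466780, with 2 exons. Kcnu1 was at 76.21, 72.24, 59.01 and 51.15 CPM in the libraries labelled KO and at 31.96, 31.06, 31.22 and 38.51 CPM in those labelled WT. Every library labelled KO exceeded every one labelled WT, and WT replicate 4 was the highest of its genotype. The log2 fold change of Kcnu1 was 0.96 ± 0.127 (SE, adjusted p = 0.000323, edgeR), with means of 64.65 ± 11.62 and 33.19 ± 3.569 CPM (SD, n = 4) and an exact permutation p of 0.0286.

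Lrrc52 was the least abundant member, at 14.24, 13.06, 11.89 and 10.21 CPM in the libraries labelled KO and 4.175, 4.178, 6.143 and 4.545 CPM in those labelled WT. The genotypes did not overlap, and WT replicate 3 was the highest of the libraries labelled WT. Behind these values stood 214, 208, 188 and 166 counts in the libraries labelled KO and 67, 69, 97 and 74 in those labelled WT. Lrrc52 thus had a log2 fold change of 1.37 ± 0.156 (SE, adjusted p = 0.00012, edgeR), and the exact permutation p was 0.0286. Atp1a4, Lrrc52 and Kcnu1, 3 of the 8 members, thus had every library labelled KO above every library labelled WT, as had 11.8% of all tested genes, and no member had every library labelled KO below, as had 6.88%.

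The auxiliary subunit and the pore changed by amounts that the libraries did not separate. The log2 ratio of Lrrc52 to Kcnu1 was -2.38, -2.42, -2.26 and -2.27 in the libraries labelled KO and -2.80, -2.75, -2.26 and -2.95 in those labelled WT. WT replicate 3 lay above all 4 libraries labelled KO and the other 3 labelled WT lay below all of them. The mean ratio was 0.35 higher in the libraries labelled KO (exact permutation p = 0.143, adjusted p = 0.163 over 8 pairs). Kcnma1, which encodes the related large-conductance potassium channel of other tissues, was at 11.62 ± 0.291 and 11.89 ± 1.461 CPM (SD, n = 4), and the log2 ratio of Kcnu1 to Kcnma1 was 0.96 higher in the libraries labelled KO (exact permutation p = 0.0286, adjusted p = 0.0457).

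**Figure D2:**
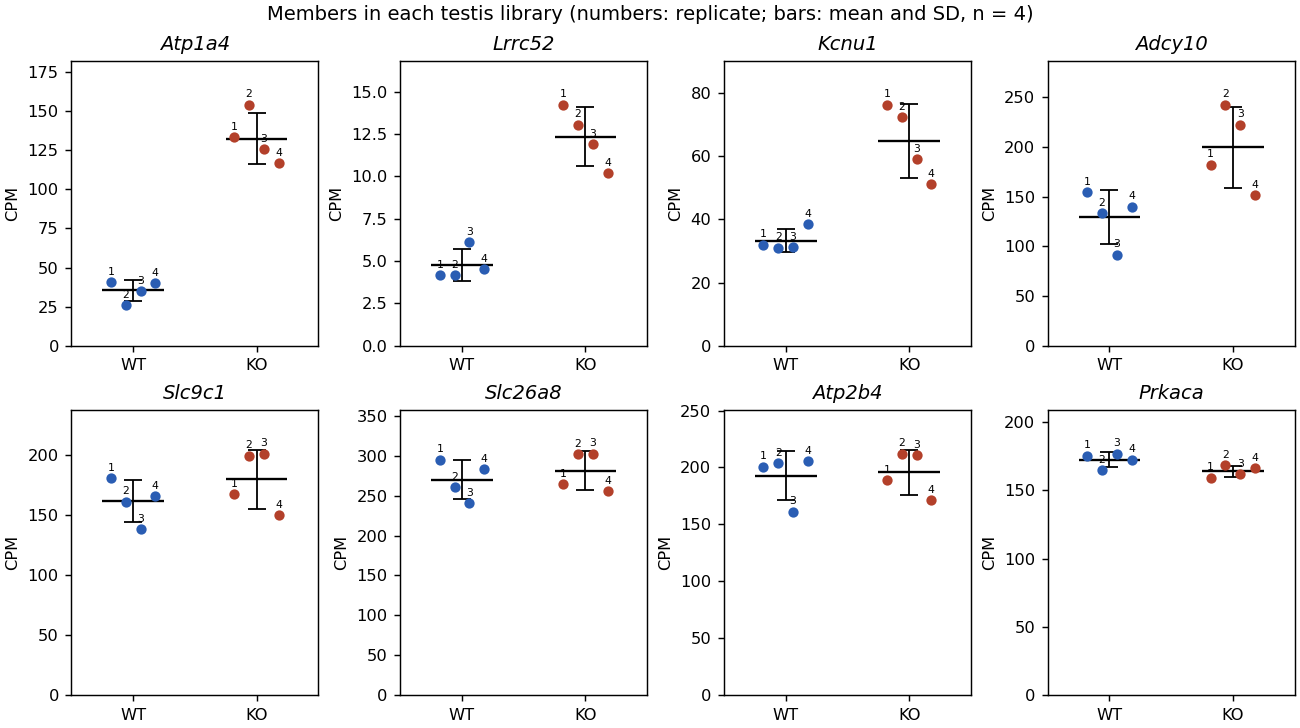
Level of each member in CPM in the 4 libraries labelled WT and the 4 labelled KO (points, with the replicate number above), with the mean and SD of each genotype as bars. Atp1a4, Lrrc52 and Kcnu1 do not overlap between the genotypes, Adcy10 overlaps in 1 library of each, and in the lower row the genotypes lie at similar levels.

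Adcy10, the bicarbonate-sensitive cyclase that makes cAMP in sperm, rose less and with more spread. It lies on the plus strand of chromosome 1 at 165485183 to 165576774, with 34 exons in its longest coding transcript. Its level was 182.4, 242.8, 222.6 and 151.7 CPM in the libraries labelled KO and 154.3, 133.4, 91.70 and 140.1 CPM in those labelled WT. KO replicate 4 lay just below WT replicate 1, and WT replicate 3 was the lowest of all. Adcy10 had a log2 fold change of 0.62 ± 0.170 (SE, adjusted p = 0.0361, edgeR), with means of 199.9 ± 40.74 and 129.9 ± 26.89 CPM (SD, n = 4) and an exact permutation p of 0.0571. The call was lost without KO replicate 1, 2 or 3 or WT replicate 2 or 4, with adjusted p between 0.0573 and 0.117 (edgeR). With KO replicates 1 and 4 and WT replicate 3 left out, the value was 0.74, which is a description only, since these 3 libraries were chosen after seeing that Adcy10 and other members were low in them.

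Prkaca, which carries the activity of protein kinase A that cAMP releases, was nearly level. It lies on the plus strand of chromosome 8 at 83972993 to 83996443, with 10 exons. Its level was 159.4, 168.3, 162.1 and 166.4 CPM in the libraries labelled KO and 175.5, 164.8, 177.0 and 172.6 CPM in those labelled WT, and the ranges overlapped. Its log2 fold change was -0.07 (95% interval -0.20 to 0.06, adjusted p = 0.476, edgeR). The log2 ratio of Prkaca to Adcy10 fell by 0.69 in the libraries labelled KO, with means of -0.26 ± 0.299 in the libraries labelled KO and 0.43 ± 0.346 in those labelled WT (SD, n = 4, exact permutation p = 0.0286, adjusted p = 0.0457). The ratio of Prkaca to Prkacb, another catalytic subunit, differed by 0.03 (exact permutation p = 0.8).

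The other 3 members move protons, anions and calcium. Slc9c1, a sodium-proton exchanger with a cyclic nucleotide binding domain and a role in sperm cAMP production, lies on the plus strand of chromosome 16 at 45535309 to 45607001, with 28 exons. It was at 167.5, 199.2, 200.9 and 150.0 CPM in the libraries labelled KO and 180.5, 160.9, 138.2 and 165.4 CPM in those labelled WT, with overlap. Its log2 fold change was 0.15 (95% interval -0.09 to 0.39, adjusted p = 0.415, edgeR). Adcy10 rose against Slc9c1, since their log2 ratio was 0.12, 0.28, 0.15 and 0.02 in the libraries labelled KO and -0.23, -0.27, -0.59 and -0.24 in those labelled WT. The ranges did not overlap and the means differed by 0.47 (exact permutation p = 0.0286, adjusted p = 0.0457). With KO replicates 1 and 4 and WT replicate 3 left out, the log2 fold change of Slc9c1 was 0.28, again a description, since the choice of these libraries used its own values.

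Slc26a8 encodes an anion transporter that interacts with the chloride channel Cftr, and it lies on the minus strand of chromosome 17 at 28637783 to 28690233, with 20 exons. It was at 264.8, 302.5, 303.0 and 256.0 CPM in the libraries labelled KO and 295.6, 261.0, 241.2 and 283.3 CPM in those labelled WT. The genotypes overlapped, and the log2 fold change was 0.06 (95% interval -0.13 to 0.25, adjusted p = 0.707, edgeR). Atp2b4, which pumps calcium out of the sperm tail, lies on the minus strand of chromosome 1 at 133699457 to 133801041, and 6 bases of its exons are shared with Mir6903 on the same strand. Its levels of 188.7, 212.2, 211.0 and 171.3 CPM in the libraries labelled KO overlapped those of 200.8, 203.8, 161.2 and 205.8 CPM in the libraries labelled WT. The log2 fold change was 0.02 (95% interval -0.19 to 0.24, adjusted p = 0.912, edgeR), and against Atp2b1, another plasma membrane calcium pump, the log2 ratio was 0.20 higher in the libraries labelled KO (exact permutation p = 0.0571, adjusted p = 0.0762).

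**Figure D3:**
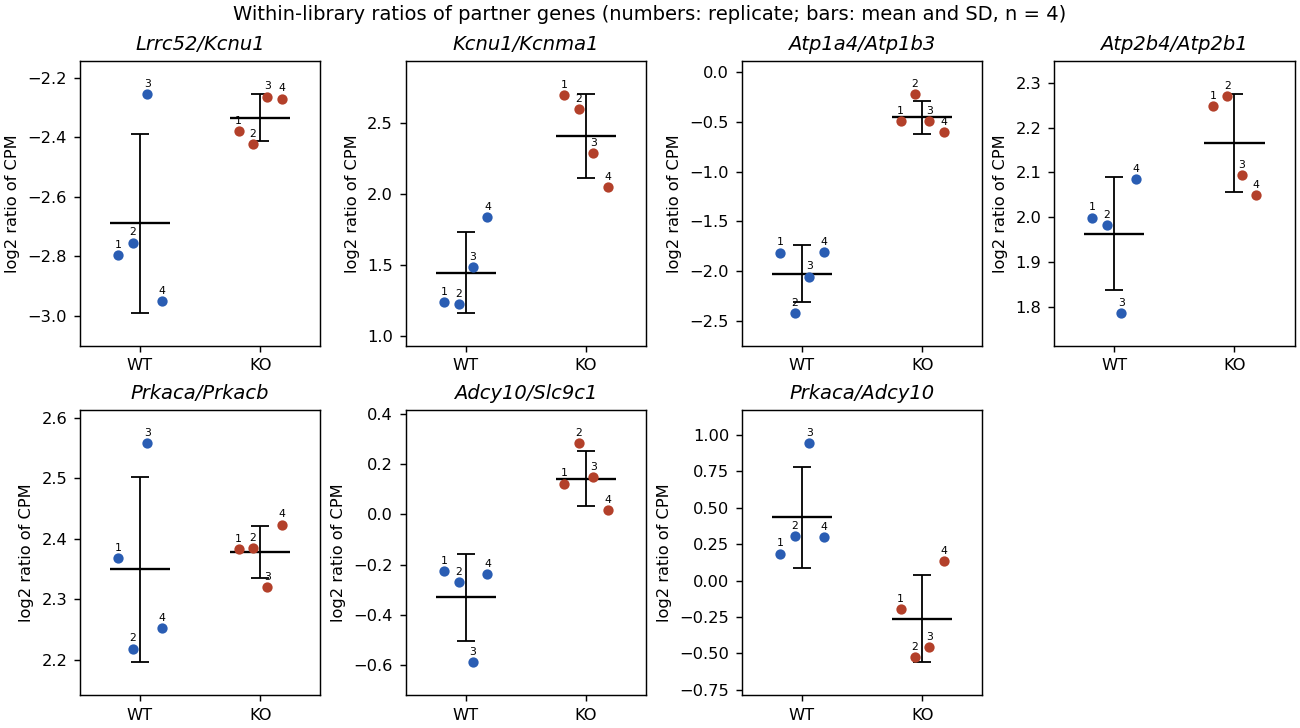
Within-library log2 ratio of CPM plus 0.5 for 7 pairs of genes in the 4 libraries labelled WT and the 4 labelled KO (points, with the replicate number above), with mean and SD as bars. The genotypes do not overlap for Kcnu1 to Kcnma1, Atp1a4 to Atp1b3, Adcy10 to Slc9c1 and Prkaca to Adcy10.

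A group of 4 members shared an order of the libraries. Adcy10, Slc9c1, Slc26a8 and Atp2b4 were lower in KO replicates 1 and 4 than in KO replicates 2 and 3, and each was lowest among the libraries labelled WT in replicate 3. Atp1a4, Lrrc52, Kcnu1 and Prkaca did not show this order, and Lrrc52 and Prkaca were highest of the libraries labelled WT in replicate 3. How many of all tested genes share this order was not counted. The same libraries stood apart in the transcript length that the deposited values imply, computed per gene from the count, the library total and FPKM, the fragments per kilobase of transcript scaled to the library total. This measure was added after seeing the data.

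The implied length of Slc26a8 was 2687, 3196, 3063 and 2690 bases in the libraries labelled KO and 2971, 2928, 2349 and 2890 bases in those labelled WT. Its 3 lowest values were those of KO replicates 1 and 4 and WT replicate 3. Adcy10 had 3879 and 4044 bases in KO replicates 1 and 4 and 3771 bases in WT replicate 3, against 4163 to 4626 bases in the other libraries. For Atp1a4 the same 3 libraries had 2950, 2995 and 2651 bases, against 3026 to 3212 bases in the others. The range over the 8 libraries came to 36.1%, 22.7% and 21.1% of the lowest value for Slc26a8, Adcy10 and Atp1a4, and 3.34% of 11960 genes had a range of 20% or more. None of the 3 lengths separated the genotypes (exact permutation p = 0.571, 0.514 and 0.629, n = 4 each), and the part of the split between libraries in the changes above was not tested.

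The implied length of the other 5 members ranged by 2.54% or less, with Lrrc52 between 955.7 and 975.7 bases. Tmem232 behaved otherwise. Its implied length was 2205, 2199, 2202 and 2217 bases in the libraries labelled KO and 2334, 2319, 2260 and 2331 bases in those labelled WT. It was 4.54% lower in the libraries labelled KO, without overlap (exact permutation p = 0.0286), a separation that 2.9% of 11960 genes had in either direction.

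**Figure D4:**
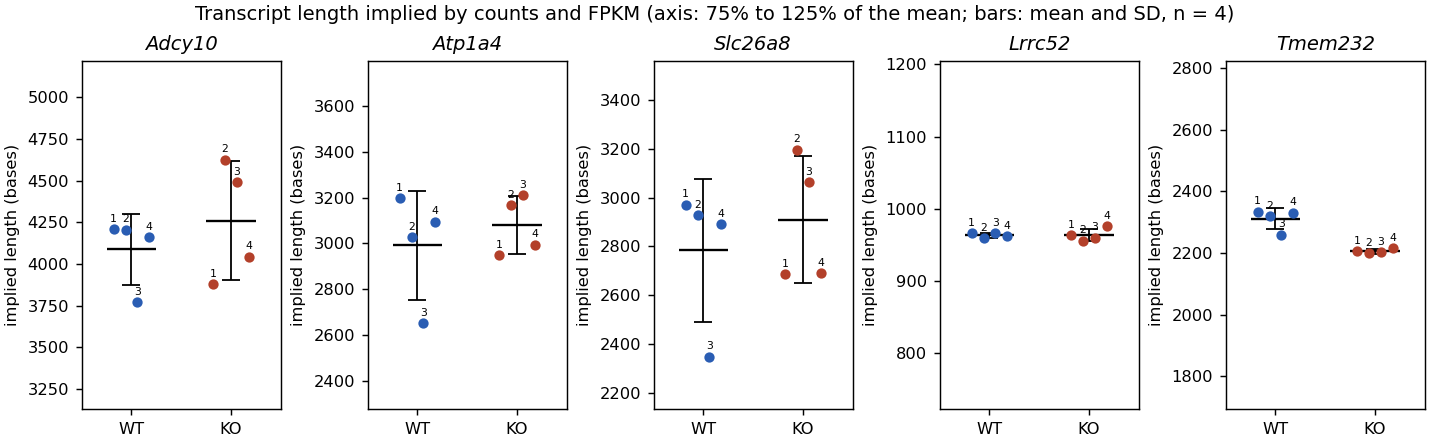
Transcript length in bases implied by the deposited counts and FPKM of 5 genes in the 4 libraries labelled WT and the 4 labelled KO (points, with the replicate number above), with mean and SD as bars. KO replicates 1 and 4 and WT replicate 3 are lowest for Adcy10, Atp1a4 and Slc26a8, Lrrc52 is level, and Tmem232 separates the genotypes.

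Levels of different genes were compared per length, as FPKM. In the libraries labelled WT the order was Slc26a8 at 98.42 ± 5.594, Prkaca at 83.8 ± 2.405, Slc9c1 at 45.27 ± 3.942, Adcy10 at 31.89 ± 4.869, Atp2b4 at 24.1 ± 2.411, Atp1a4 at 11.98 ± 2.135, Kcnu1 at 10.18 ± 1.034 and Lrrc52 at 5.003 ± 1.03 FPKM (SD, n = 4). Adcy10 and Atp2b4 overlapped, as did Atp1a4 and Kcnu1, and the other neighbours did not. In the libraries labelled KO, Atp1a4 stood at 42.36 ± 4.252 FPKM, above Atp2b4 at 23.81 ± 1.939 in every library and overlapping Adcy10 at 46.0 ± 5.704. Slc9c1 at 48.94 ± 6.305 FPKM overlapped Adcy10, and Kcnu1 at 19.24 ± 3.136 FPKM overlapped Atp2b4. Slc26a8 at 95.61 ± 1.993 and Prkaca at 77.91 ± 3.05 FPKM remained the most abundant members, and Lrrc52 at 12.63 ± 1.586 the least.

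Each member was also matched with the 3 genes, of 12133 with a mean of at least 5 CPM, whose centred log2 CPM over the 8 libraries lay closest to its own. For Atp1a4 these were Fhl5, Gm39566 and Fam243, at root mean square distances of 0.125, 0.138 and 0.159. For Lrrc52 they were Ace3, LOC102638085 and Cpa5 at 0.0764 to 0.0849, and for Kcnu1 they were Ell2, Muc16 and 4921501E09Rik at 0.0702 to 0.0798. Adcy10 was nearest to Naif1, Ttc21a and Lrp5 at 0.0685 to 0.107. Among members that did not pass the test, Slc9c1 was nearest to Dnah7a, Rcor3 and Qrich2, Prkaca to Prim1, Ccna1 and Poldip2, Atp2b4 to Mfn1, Fgd6 and Pus10, and Slc26a8 to Hps4, Wdtc1 and Tmem175, all at 0.0393 or less. Between members, the smallest distance was 0.0693, for Atp2b4 and Slc26a8, and Prkaca and Atp1a4 were the farthest apart at 1.0.

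Around the members, 122 other genes of the same pathways were listed, likewise with earlier results of these data known, and 105 were tested. Of these, 16 or 15.2% rose in the libraries labelled KO, against 10.3% of all tested genes, and none fell at an adjusted p under 0.05, while 24 were higher and 10 lower at an unadjusted p under 0.05 (edgeR). Of all tested genes, 14.6% were higher and 10.5% lower at that unadjusted threshold. Each of 3 genes was called lower in some alternative, namely Fxyd5 by limma on log2 FPKM, Rapgef3 without WT replicate 3 and Fxyd6 with KO replicates 1 and 4 and WT replicate 3 left out. The median log2 fold change of the 105 genes was 0.05. Of the 16 genes that rose, 8 were among the 19 tested for proteins that anchor protein kinase A, and the lists were not compared by a test.

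Akap3 and Akap4, the main anchoring proteins of the fibrous sheath of the sperm tail, were among them. Akap4 was at 312.5 ± 40.09 CPM in the libraries labelled KO and 98.37 ± 14.28 CPM in those labelled WT, and Akap3 at 406.8 ± 43.69 and 160.2 ± 17.09 CPM (SD, n = 4). Their log2 fold changes were 1.67 (adjusted p = 2.1e-05) and 1.34 (adjusted p = 2.1e-05, edgeR). Neither gene overlapped between the genotypes. Ropn1 and Cabyr, further proteins of the fibrous sheath, rose by 1.39 and 1.20 on the log2 scale, and Akap1, which tethers the kinase to mitochondria, rose by 1.45.

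Among 8 tested genes for subunits and inhibitors of protein kinase A, 2 rose, Prkar2a, a regulatory subunit, by 1.33 and Pkib, an inhibitor, by 1.52 on the log2 scale. Of 16 tested phosphodiesterases, which break down cyclic nucleotides, 2 rose, with Pde1a at 1.00 and Pde4a at 0.89. None of the 8 other adenylyl cyclases tested was called, and none had an unadjusted p under 0.05. None of 5 other cAMP effectors was called either, with 1 higher and 2 lower at an unadjusted p under 0.05. Among 15 tested genes listed with anion transport, Car2, a carbonic anhydrase that forms bicarbonate, rose by 1.90 from 0.8723 to 1.781 CPM in the libraries labelled WT to 3.289 to 7.122 CPM in those labelled KO, and Cftr rose by 0.49. Among 9 tested genes for the sodium pump and its Fxyd regulators, other than Atp1a4, 1 rose, Atp1b3, and 4 were lower at an unadjusted p under 0.05, with a median log2 fold change of -0.17. None of 9 genes listed with the calcium pumps, which include the pump partners Bsg and Nptn, and none of 5 for potassium and proton channels passed the test (edgeR), with the pumps Atp2b1, Atp2b3 and Atp2a3 lower and 1 channel gene each way at an unadjusted p under 0.05.

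**Figure D5:**
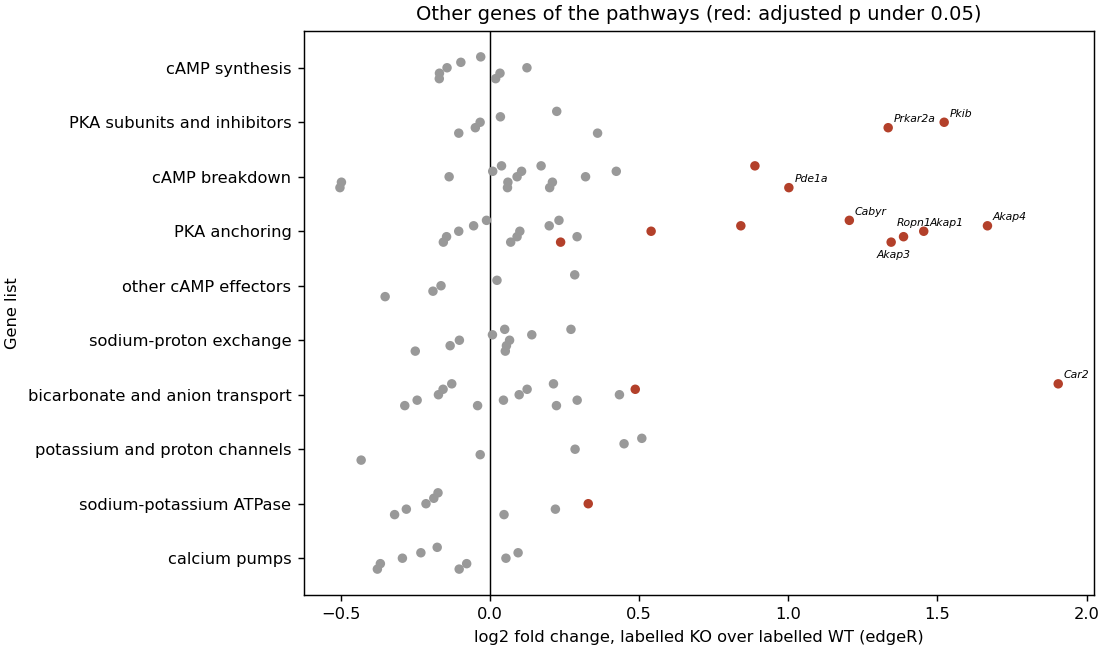
Log2 fold change, libraries labelled KO over WT from edgeR, of tested pathway genes other than the members (points) by list. Genes with an adjusted p under 0.05 are red, those at 1 or more are named, and 8 red points lie in the list of kinase anchoring.

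Markers of spermatids moved in the same direction as the 4 members that rose. Of 12 markers of round spermatids, 10 were higher in the libraries labelled KO, with a median log2 fold change of 1.12, and their summed level was 1556 to 1889 CPM against 923.1 to 1205 CPM. Of 12 markers of elongating spermatids, 11 were higher. Over all 12 the median log2 fold change was 1.98, with a wide range of -0.12 to 4.44. Their sums were 1399 to 2297 against 550.8 to 1067 CPM. Spermatocyte markers had 1 lower call in 10 and overlapping sums of 2007 to 2552 and 2216 to 2586 CPM, and 4 of 12 spermatogonial markers were lower, with sums of 263.6 to 294.2 against 318.0 to 348.2 CPM. No marker of Sertoli or Leydig cells was called, although 5 of 7 Leydig markers were higher and 2 of 9 Sertoli markers lower at an unadjusted p under 0.05. Leydig sums were 402.4 to 570.8 against 254.0 to 436.4 CPM and Sertoli sums 1911 to 2440 against 2216 to 2336 CPM. Of 5 myoid markers 2 were lower, with sums of 197.3 to 235.5 against 250.2 to 295.9 CPM. No macrophage, endothelial or red blood cell marker was called, 1 endothelial marker was lower at an unadjusted p under 0.05, and the sums of these lists overlapped, with 150.2 to 596.0 and 304.6 to 595.1 CPM for red blood cells. Of 3 epididymal markers tested 1, Cst8, was higher, at 23.08 to 37.27 CPM in the libraries labelled KO against 5.51 to 11.97 CPM. Rnase10 and Crisp1 were not called. Crisp1 spread from 0 to 5.524 CPM in the libraries labelled KO and from 0 to 27.04 CPM in those labelled WT. Epididymal sums did not exceed 49.45 CPM in any library. The part of these cell types in the changes of the members was not tested.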

How the data were processed

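RNA from testes of 4 mice per genotype, 1 library each, was sequenced by the authors after preparation with a TruSeq kit. The authors' notes name HISAT, Bowtie2, StringTie, featureCounts and DESeq2, with GRCm38.p6 as the build. The deposited table gives estimated counts as raw values, of which between 10.7% and 11.2% per library were not whole. It also gives FPKM that the authors scaled to transcript length and to the total of the library, which was checked on 851 genes that have 1 transcript. Columns of the authors' own comparison, namely a log2 fold change, a p-value and a q-value, were left aside. Gene coordinates and strands given here are those of GENCODE M21. The deposited annotation had a far longer span for Kcnu1 than RefSeq and a strand other than that of GENCODE for Tmem232, Lrrc52 and Atp1a4.

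Rounded counts went into edgeR 4.0.16 under R 4.3.3 (filterByExpr, TMM, quasi-likelihood test, no covariates), with Benjamini-Hochberg adjustment over 15787 genes. Intervals are 95% intervals of the fit. Pairs of genes were compared as log2 ratios of CPM plus 0.5 by exact two-sided permutation tests over 70 arrangements, with Python 3.11.15, numpy 2.4.6, pandas 2.3.3 and scipy 1.17.1. Implied length, for genes with at least 50 counts and 1 FPKM, is the count divided by the library total and FPKM. Alternatives were DESeq2 1.42.0, its size factors, library size alone, omission of the 10 genes with the most counts, no filter, at least 10 counts in every library, limma-voom, limma 3.58.1 on log2 FPKM plus 1 or 0.1, a replicate block and each library left out. The edgeR, DESeq2 and limma-voom fits were tested on simulated counts. The permutation test was checked on a made-up case with full separation.

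Named genes were the members, Tmem232, the partner genes, pathway genes with an adjusted p under 0.05 and a log2 fold change of at least 1, and the 3 nearest genes per member. Other pathway genes called higher or lower were named after their values were seen. Members and lists were chosen with earlier results of these data known. Some genes of the lists are not reported here. Marker lists of 11 cell types or tissues were written from general knowledge.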

Additional observations from a re-analysis of the deposited data

Results flagged for a closer look

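Kcnu1 in WT replicate 4, at 38.5 CPM, lay above the other 3 libraries labelled WT, which were between 31.06 and 31.96 CPM, by a gap of 0.879 of the range of the group. Atp2b4 in WT replicate 3, at 161 CPM, lay below the other 3, which were between 200.8 and 205.8 CPM, by 0.888 of the range. Both gaps passed Dixon's limit for a group of 4. Of 46 groups examined 2 passed it, and chance gives about 2.3.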

How the results depend on the processing

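Atp1a4, Lrrc52 and Kcnu1 kept their direction and their call in all 19 alternatives, and so did the pathway genes with a log2 fold change of 1 or more. The number of members called higher was 3 to 5, with the 5 under that choice of libraries described below, and the number called lower was 0 throughout. Adcy10 stayed higher, but its call was lost with the replicate block (0.62, adjusted p = 0.082, edgeR), and leaving out 1 library gave 0.52 to 0.76 with adjusted p from 0.014 to 0.117. In deviations from the mean of their genotype, same-numbered libraries correlated at -0.11, 0.12, -0.41 and -0.13. So few correlations cannot exclude that the replicate numbers paired the samples. The block also ended the call of Tmem232 (0.26, adjusted p = 0.114, edgeR). It lowered the number of pathway genes called higher from 16 to 14, and it changed no call of the other members. With KO replicates 1 and 4 and WT replicate 3 left out, libraries chosen after seeing that Slc9c1, Adcy10 and other members were low in them, the value of Slc9c1 was 0.28, past the threshold of a test that this choice voids, and 1 pathway gene was lower. One pathway gene was also lower with limma on log2 FPKM plus 1 or 0.1, and leaving out 1 library gave 0 to 1. Atp2b4 changed sign with library size alone (-0.0134) and with FPKM plus 1 (-0.015) or 0.1 (-0.0154), and ranged from -0.0244 to 0.0948 without 1 library. Slc26a8 changed sign with FPKM plus 1 (-0.0399) or 0.1 (-0.0403). Kcnma1 changed sign without the filter (0.0114), with FPKM plus 1 (0.0101) or 0.1 (0.0168), and without WT replicate 1 (0.0639) or 2 (0.0132), with a range of -0.0909 to 0.0639 without 1 library. The cause of these changes was not tested. Without 1 library the log2 fold change of Tmem232 was 0.21 to 0.32. The pairs of genes called in the report kept their direction in all 12 alternatives, and their adjusted p was 0.0457 with FPKM plus 0.1 and with CPM plus 1; no p was computed in the others. Prkaca to Prkacb ranged from -0.0153 to 0.0978 without 1 library.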
